A study of Homo sapiens with 6 samples.

Results

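The NF-kappaB feedback genes and CXCL chemokines described here are 10 genes: the subunit genes RELA, RELB, NFKB1 and NFKB2, the inhibitor genes NFKBIA and TNFAIP3, the chemokine genes CXCL1, CXCL2 and CXCL8, and the survival gene BIRC3. They were chosen by name, as the genes whose Ensembl identifier, without its version, maps to these symbols. All 10 were found among the 20422 genes of the table, and 9 of them passed the filter on low counts that left 12386 genes for the test. CXCL1 did not pass.

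RNA-Seq was performed on HepG2, a human liver cancer cell line that the study lists as hepatocellular carcinoma. There were 3 control libraries (NC) and 3 libraries of cells overexpressing APPLE fused to a Flag tag (ORF-Flag). APPLE is a microprotein encoded by the lncRNA ASH1L-AS1. The comparison asks which transcripts differ between cells given the ORF-Flag construct and control cells. The study's start codon mutant, used in other assays to separate the microprotein from its RNA, is not among these libraries. Effects of the microprotein, its RNA, the tag or the line therefore cannot be told apart here. Per the labels, NC cells received vector plasmids and ORF-Flag cells received the overexpression plasmids, whereas the study's methods describe stable lines made with lentiviral vectors and selected with puromycin. No stimulus such as a cytokine is named for either group, and neither source says whether a line was 1 clone or a pool. It is also not stated whether the 3 libraries of a group came from separate cultures, so the p-values measure only the spread between these libraries, which may be technical. The deposited counts summed to 20081203 for NC replicate 1, 24907524 for NC replicate 2 and 30088457 for NC replicate 3. For ORF-Flag replicates 1 to 3 the sums were 26866148, 17494668 and 27015836, so both groups spanned a similar depth. Each level is a TMM-normalized CPM, a count scaled by library size, and each difference a log2 fold change of ORF-Flag minus NC from edgeR's quasi-likelihood test, with Benjamini-Hochberg adjustment over the 12386 genes. A gene was called when its adjusted p was below 0.05.

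NF-kappaB is a family of dimeric transcription factors that inhibitor proteins hold in the cytoplasm until an upstream kinase complex marks those inhibitors for destruction. Freed dimers switch on inflammatory and survival genes, and among these are the genes of their own inhibitors, which close a negative feedback loop. In the liver the pathway is known for the acute phase response, for protection of hepatocytes from death signals and for chemokines that recruit neutrophils.

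CXCL8 was the member that differed most clearly. Among the 9 tested members it was the 1 called, or 11.1%, beside 4.45% of all tested genes (551 of 12386). In 1 direction, 1 of the 9 was called higher, beside 2.47% of all tested genes, and 0 of the 9 were called lower, beside 1.98%; DESeq2 and limma-trend also called CXCL8 alone. By edgeR, 3 of the 9 had an unadjusted p below 0.05, beside 18.5% of all tested genes. A call of 1 gene is the smallest count above 0, so the members are described gene by gene rather than as a set. The count over all tested genes depended on single libraries. It was 267 without NC replicate 2, 1058 without NC replicate 3, 300 without ORF-Flag replicate 1, 278 without ORF-Flag replicate 2 and 199 without ORF-Flag replicate 3. CXCL8 was called in each of these fits.

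RELA encodes p65, the subunit that carries the activation domain of the most common dimer. It stood at 51.6, 49.5 and 48.5 CPM in NC replicates 1 to 3 and at 49.0, 45.6 and 46.3 CPM in ORF-Flag replicates 1 to 3. The highest ORF-Flag library lay within the NC range, so the groups overlapped. RELA was not called, with a difference of -0.08 ± 0.05 (log2, standard error) and an adjusted p of 0.40 in edgeR. NFKB1 encodes p105, which is processed to the p50 partner of p65. Its levels were 88.6, 92.1 and 87.5 CPM in NC and 91.1, 88.6 and 90.3 CPM in ORF-Flag. All 3 ORF-Flag values fell inside the NC range, and the fold of 1.01 had a narrow 95% interval, 0.953 to 1.07. The sign of this difference turned without NC replicate 3. RELB, the subunit of the noncanonical branch of the pathway, had 8.56, 6.61 and 7.28 CPM in NC and 7.30, 8.21 and 6.59 CPM in ORF-Flag. The groups overlapped nearly completely, and with 143 to 218 counts per library the fold was 0.982 (95% interval 0.828 to 1.17). Its sign turned without NC replicate 1 or without ORF-Flag replicate 3. NFKB2 encodes p100, the inhibitory precursor of the RELB partner p52. It had 57.8, 56.9 and 52.4 CPM in NC and 52.0, 50.8 and 51.0 CPM in ORF-Flag. The 3 ORF-Flag libraries all lay below the 3 NC libraries, though NC replicate 3 was close to them. The log2 fold change was -0.12 (standard error 0.05), and NFKB2 was not called (edgeR adjusted p = 0.20). Without NC replicate 3 it was called, with a log2 fold change of -0.16 and an edgeR adjusted p of 0.046, the lowest over its alternatives, which reached 0.44.

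**Figure D1:**
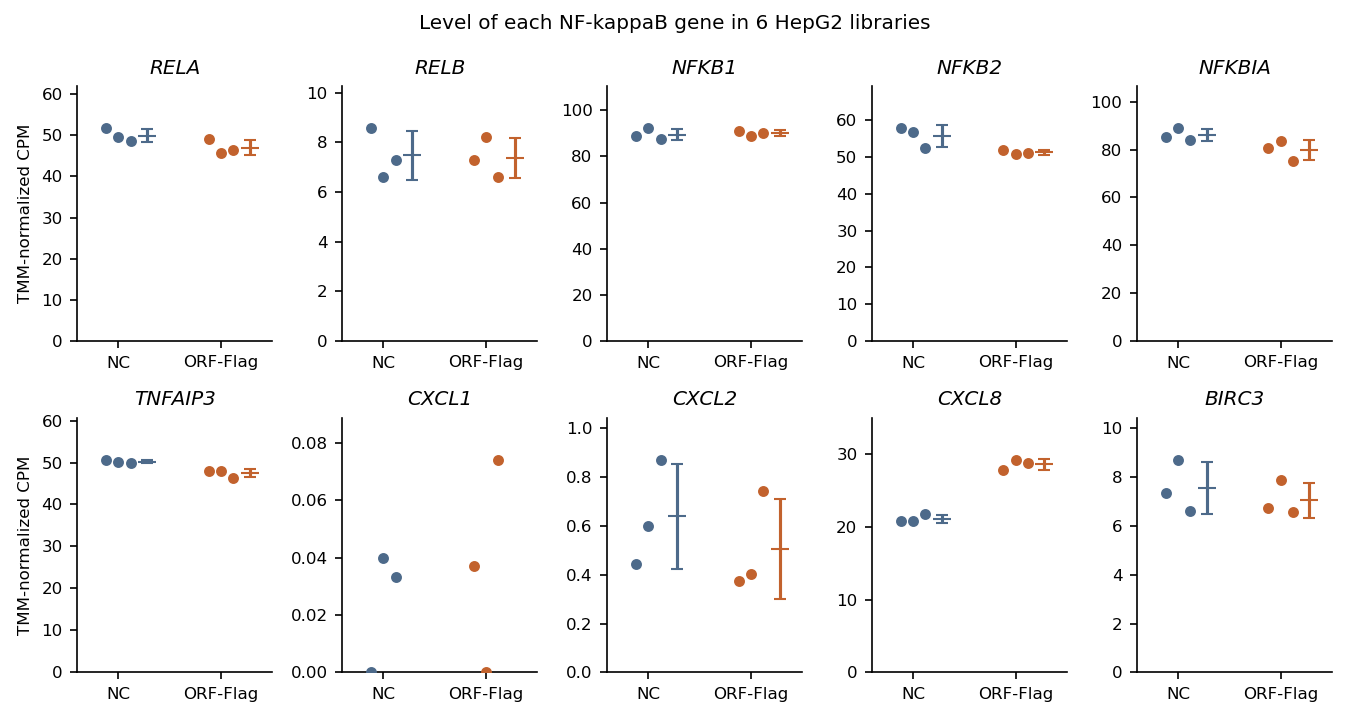
Levels of the 10 genes in TMM-normalized CPM (vertical axes, each starting at 0) in the 3 NC and 3 ORF-Flag libraries. Points are libraries and the bars beside them give the mean and SD of a group, left out for CXCL1, which had at most 2 counts in any library; CXCL8 is the panel in which the ORF-Flag libraries all lie above the NC libraries, and in NFKB2, NFKBIA and TNFAIP3 they all lie slightly below.

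NFKBIA encodes IkappaB alpha, the inhibitor that NF-kappaB itself induces. The gene (ENSG00000100906) lies on chromosome 14 from 35401511 to 35404749 on the minus strand in GENCODE release 29 on GRCh38. It was counted at 85.1, 88.8 and 84.1 CPM in NC and at 80.6, 83.8 and 75.4 CPM in ORF-Flag. Each ORF-Flag library was below each NC library, although the gap between the highest of the former and the lowest of the latter was small. The fold was 0.927 of NC (95% interval 0.871 to 0.987, not adjusted for the number of genes). After adjustment the difference did not pass (edgeR adjusted p = 0.17). TNFAIP3 (ENSG00000118503, chromosome 6 from 137867188 to 137883312, plus strand) encodes A20, a ubiquitin-editing enzyme that shuts off signalling from TNF and Toll-like receptors. Its levels were 50.6, 50.1 and 49.8 CPM in NC and 47.9, 48.0 and 46.3 CPM in ORF-Flag. The groups did not overlap, with ORF-Flag lower, and the NC libraries agreed to within 1 CPM. The log2 fold change was -0.08 (standard error 0.05) and the gene was not called (edgeR adjusted p = 0.37). In GENCODE release 29 an exon of TNFAIP3 overlaps AL357060.1, and one of RELA overlaps AP001362.2, both on the opposite strand and both not in the count table. Whether the counting used strand is not given in the sources used here, so reads of such a pair cannot be told apart. Together, 3 of the 9 tested members had all ORF-Flag libraries below all NC libraries, beside 10.9% of all tested genes, and 1, CXCL8, had them all above, beside 11.5% (22.4% in either direction). Because the data are of bulk samples, fewer cells that express a gene and less of its RNA per cell cannot be told apart.

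NFKBIA, TNFAIP3 and CXCL8 are textbook NF-kappaB targets. CXCL8 was called, and the feedback genes NFKBIA and TNFAIP3 were not (edgeR adjusted p = 0.17 and 0.37). Whether promoter sequence has a part in their values was not tested. The upstream sequences of these genes are shown as a description. They are the 250 bases before the RefSeq start site on GRCh38.p14, at chr14:35404750-35404999 (minus strand) for NFKBIA, chr6:137867009-137867258 (plus strand) for TNFAIP3 and chr4:73740319-73740568 (plus strand) for CXCL8. Capitals mark matches, on either strand, to the NF-kappaB decamer in its Lenardo-Baltimore form, to the shorter GGANTTTCC, or to TGACTCA, the motif of AP-1. A run of capitals can hold matches that overlap. The GENCODE release 29 genes of CXCL8 and TNFAIP3 begin upstream of the RefSeq start, so the last part of these stretches is exonic in that annotation.
NFKBIA: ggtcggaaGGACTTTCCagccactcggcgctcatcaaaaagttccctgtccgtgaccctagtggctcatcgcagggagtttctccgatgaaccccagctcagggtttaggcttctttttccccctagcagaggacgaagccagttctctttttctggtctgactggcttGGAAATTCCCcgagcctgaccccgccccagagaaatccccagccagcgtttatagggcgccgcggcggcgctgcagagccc
TNFAIP3: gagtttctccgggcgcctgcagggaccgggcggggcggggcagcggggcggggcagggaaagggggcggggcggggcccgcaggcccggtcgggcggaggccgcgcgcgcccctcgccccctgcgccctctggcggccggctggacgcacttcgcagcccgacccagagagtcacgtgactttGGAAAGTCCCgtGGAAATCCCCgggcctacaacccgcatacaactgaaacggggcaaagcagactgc
CXCL8: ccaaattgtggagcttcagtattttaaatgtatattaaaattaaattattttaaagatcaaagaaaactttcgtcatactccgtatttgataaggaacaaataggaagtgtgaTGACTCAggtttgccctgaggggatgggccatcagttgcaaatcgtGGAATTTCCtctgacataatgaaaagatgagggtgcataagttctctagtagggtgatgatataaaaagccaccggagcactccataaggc
In NFKBIA, GGANTTTCC matched from 242 and from 81 bases before the start, and the second match lies inside a decamer. TNFAIP3 held a pair of decamers, from 67 and 55 bases before the start, of which the first also contains a GGANTTTCC match on the same strand. In CXCL8 the decamer was not found, GGANTTTCC matched from 91 bases before the start, and TGACTCA matched from 137 bases before it. The last motif was added after the values of CXCL8 had been seen. A match describes the letters in this window and says nothing about binding in these cells.

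Promoters were searched from 250 bases before to 50 bases after each start, and 9 of the 10 members matched an entry, with 13 promoters between them; the exception was RELB. The decamer occurred in 7 of the 9 members (8 of 13 promoters), beside 11.3% of the 35116 promoters in the table. GGANTTTCC occurred in 7 of the 9 (7 of 13 promoters), beside 1.64% of all promoters. Each of these matches lay inside a decamer, except for the match in CXCL8 and the more distant one in NFKBIA. Neither motif was found in the promoters of RELA. TGACTCA occurred in 1 of the 9 members, CXCL8, beside 4.95% of all promoters. Outside the members it also occurred in IRAK1, a pathway gene described below, on the minus strand from 1 base before the start.

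**Figure D2:**
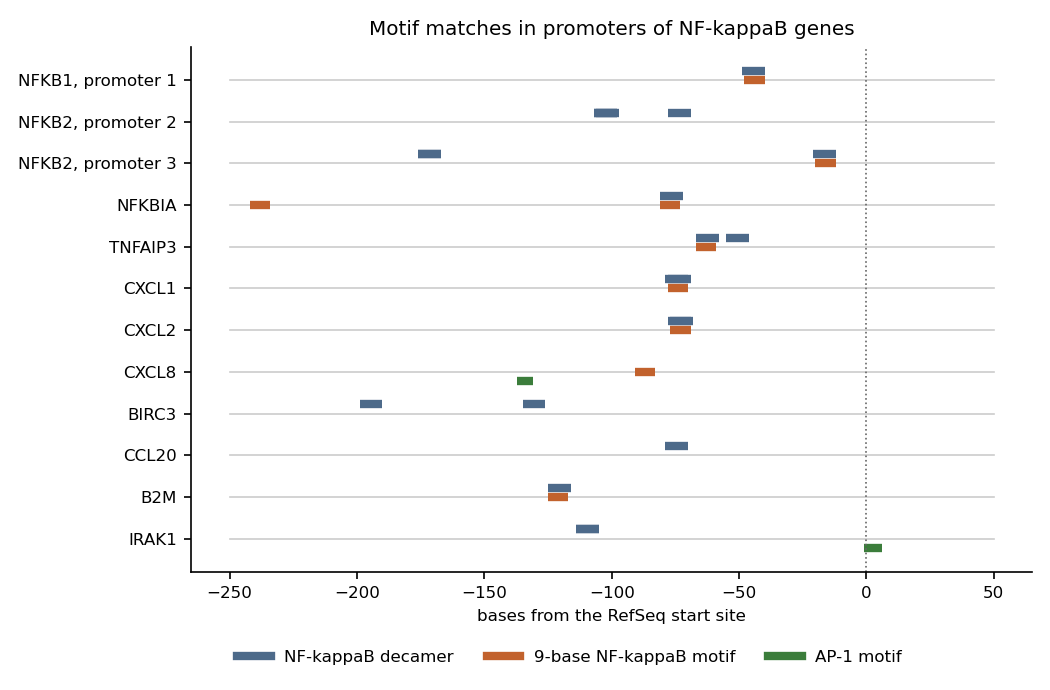
Positions of motif matches (coloured bars) along promoters from 250 bases before to 50 bases after the RefSeq start site (horizontal axis, bases), for members with a match and for CCL20, B2M and IRAK1. Most decamer matches begin within 135 bases before the start, and CXCL8 carries a 9-base match from 91 bases and an AP-1 match from 137 bases before it. IRAK1 also carries an AP-1 match, from 1 base before the start.

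CXCL8 encodes interleukin 8, a secreted chemokine that attracts neutrophils. The gene (ENSG00000169429) lies on chromosome 4 from 73740506 to 73743716 on the plus strand, with 3 exon blocks and 2274 exonic bases in GENCODE release 29. It had 20.8, 20.8 and 21.7 CPM in NC replicates 1 to 3, from 420, 520 and 650 counts. In ORF-Flag replicates 1 to 3 it had 27.7, 29.2 and 28.8 CPM, from 745, 508 and 777 counts. The groups were far apart relative to their own spread, 21.1 ± 0.532 CPM in NC and 28.6 ± 0.741 CPM in ORF-Flag (SD, n = 3 each). CXCL8 rose 1.35-fold (95% interval 1.24 to 1.48), a log2 fold change of 0.43 with a standard error of 0.06 (edgeR adjusted p = 0.00011). It ranked 38 by p among the 12386 tested genes, and 2.16% of tested genes had a larger log2 fold change. No 31-base stretch of its longest transcript occurs in another gene's transcript.

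The other CXCL members were near the lower limit of counting. CXCL1 encodes GRO alpha, which acts on the same receptor family as interleukin 8, and it had 0, 1 and 1 counts in NC and 1, 0 and 2 counts in ORF-Flag. All 6 values are at or under 3 counts, a floor of between 0.0997 and 0.171 CPM in these libraries, so no fold is given and a difference was not detectable at this depth. CXCL2, which encodes the related GRO beta, had 9, 15 and 26 counts in NC and 10, 7 and 20 in ORF-Flag. The groups overlapped widely, and the 95% interval of the fold, 0.456 to 1.35, reaches the 1.35-fold of CXCL8 at its upper end. CXCL1 and CXCL2 are similar genes, and 16.1% and 20.4% of the 31-base stretches of their longest transcripts occur in another gene, mainly each other, CXCL3 or the pseudogene CXCL1P1. Their counts are therefore uncertain, since the authors' counting could have split or dropped such reads. CXCL3 itself had at most 8 counts in a library. The 60 bases around the decamer show how alike the CXCL1 and CXCL2 promoters are, at chr4:73869289-73869348 (plus strand) and chr4:74099239-74099298 (minus strand) on GRCh38.p14, with the overlapping matches in capitals. The GENCODE release 29 gene of CXCL2 begins inside the stretch shown.
CXCL1: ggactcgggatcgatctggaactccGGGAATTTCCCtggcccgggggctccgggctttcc
CXCL2: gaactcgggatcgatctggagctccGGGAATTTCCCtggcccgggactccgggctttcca
Over the 300 bases searched, a global alignment gave 71.9% identity between CXCL1 and CXCL2, 45.2% between CXCL1 and CXCL8 and 47.9% between CXCL2 and CXCL8. All 3 genes lie in the chemokine cluster of chromosome 4, with 126 kb between CXCL8 and CXCL1 and 226 kb between CXCL1 and CXCL2. Among these neighbours the counts per library ranged from 0 to 2 for CXCL1 and from 420 to 777 for CXCL8.

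BIRC3 encodes cIAP2, a ubiquitin ligase of the TNF receptor complex that NF-kappaB induces and that protects cells from death signals. It had 7.32, 8.69 and 6.62 CPM in NC and 6.70, 7.87 and 6.56 CPM in ORF-Flag. The groups overlapped, with a fold of 0.928 (95% interval 0.781 to 1.10), and the sign of its small difference turned without NC replicate 2. Its paralog BIRC2, which encodes cIAP1, shares a small part of its sequence, and 0.871% of the 31-base stretches of BIRC3 occur in another gene.

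**Figure D3:**
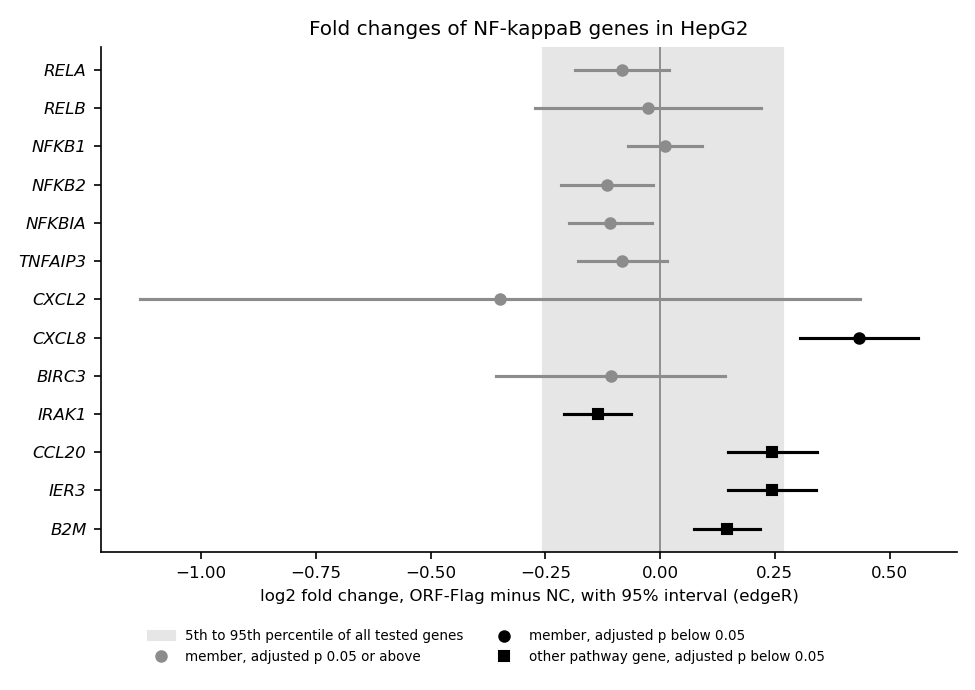
Log2 fold changes of ORF-Flag minus NC (horizontal axis) with 95% intervals from edgeR, for the 9 tested members (circles) and the 4 called genes of the other pathway lists (squares), in black where the adjusted p was below 0.05. The grey band holds the values between the 5th and 95th percentile of all tested genes, -0.26 to 0.27; of the members, CXCL8 and the imprecise CXCL2 have estimates outside it.

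Levels of different genes were compared after division by exon length, as CPM per kb of exon. The length was that of all annotated exons of a gene, merged, which 1 transcript need not hold. For RELA it was 5464 bases, beside 3183 for its longest transcript, and for CXCL8 it was 2274, beside 1705. The places of genes with similar levels therefore depend on the length used. In NC the order of the means was NFKBIA (36.2), NFKB1 (14.3), NFKB2 (12.4), TNFAIP3 (9.93), CXCL8 (9.28), RELA (9.13), RELB (2.47), BIRC3 (libraries between 0.880 and 1.16) and CXCL2 (0.425 CPM per kb). The libraries of CXCL8, at 9.13 to 9.55 CPM per kb, overlapped those of RELA, at 8.88 to 9.45, and the other neighbours in the order did not overlap. In ORF-Flag the level of CXCL8 was 12.6 CPM per kb, above NFKB2 (11.4), TNFAIP3 (9.39) and RELA (8.59), and its libraries, at 12.2 to 12.8 CPM per kb, did not overlap those of any other member. With these lengths CXCL8 moved from the fifth to the third place in the order, and the other members kept their order. The inhibitor gene NFKBIA was the most abundant member in both groups, with a level above that of 91.2% of tested genes, against 71.6% for CXCL8 and 9.60% for CXCL2.

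**Figure D4:**
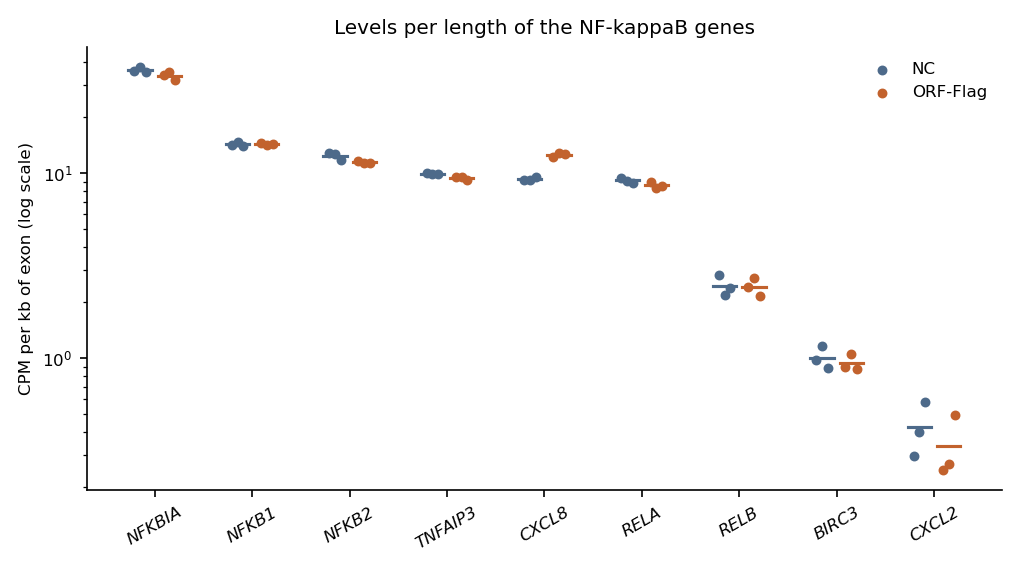
Levels of 9 members in CPM per kb of exon (vertical log axis) in each NC and ORF-Flag library, ordered by the NC mean; points are libraries and lines are group means. With the merged length of all annotated exons, CXCL8 lies beside RELA in NC and above NFKB2 in ORF-Flag, and NFKBIA is highest in both groups.

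Ratios within a library do not depend on its scaling. The ratio of CXCL8 to NFKBIA in CPM was 0.244, 0.234 and 0.258 in NC and 0.344, 0.348 and 0.382 in ORF-Flag. That of CXCL8 to TNFAIP3 was 0.411, 0.416 and 0.436 in NC and 0.579, 0.608 and 0.622 in ORF-Flag. Both ratios were higher in all 3 ORF-Flag libraries, by 0.54 and 0.52 on the log2 scale, beside 0.43 for CXCL8 alone. A two-sided exact permutation test of each ratio gave p = 0.10, the smallest that this test allows with 3 libraries against 3, so it cannot go below 0.05 here. These were 2 of 8 ratios computed, of CXCL8 to each other tested member, and that to CXCL2 overlapped between the groups. All 8 share the values of CXCL8, so they describe that gene again and are not separate results.

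The rest of the pathway was read from 7 lists with 129 further genes, of which 91 were tested. Of these, 3 were called higher and 1 lower, 4.40% in all, which is close to the 4.45% of all tested genes. Their median log2 fold change was 0.02, with 54 of 91 above 0, beside a median of -0.0012 and 49.5% above 0 for all tested genes. Among the 9 tested members the median was -0.08 and 2 were above 0. The receptors and ligands had 0 called of 12 tested genes, beside 4.45% of all tested genes, and a median log2 fold change of -0.01. In edgeR 2 of the 12 had an unadjusted p below 0.05, beside 18.5% of all tested genes. The gene of this list with the most counts, TNFRSF1A, the main TNF receptor, stood at 106 to 111 CPM in all 6 libraries, with overlapping groups. The ligand TNF had at most 3 counts in a library. Of the adaptors and ubiquitin ligases, 1 of 22 was called lower (4.55%, beside 1.98% of all tested genes; 2 had an unadjusted p below 0.05 in edgeR, beside 18.5%), with a median log2 fold change of 0.02 over the list. This was IRAK1, a kinase that relays interleukin 1 and Toll-like receptor signals. It had 182, 173 and 174 CPM in NC and 159, 163 and 160 CPM in ORF-Flag. All ORF-Flag libraries were lower, and the log2 fold change of -0.14 ± 0.03 (standard error) passed with an adjusted p of 0.024 in edgeR. Leaving out any library other than NC replicate 3 ended this call (edgeR adjusted p between 0.0092 and 0.12 over the alternatives).

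The kinases had 0 called of 12, beside 4.45% of all tested genes, and a median log2 fold change of 0.02. In edgeR 1 of the 12 had an unadjusted p below 0.05, beside 18.5% of all tested genes. CHUK, the IKK alpha subunit and the most counted of these kinases, had a log2 fold change of 0.03. The remaining subunit gene, REL, was not called, at 6.07 to 7.47 CPM over the 6 libraries. The other inhibitors and deubiquitinases had 0 called of 17, beside 4.45% of all tested genes, and a median log2 fold change of -0.0024. In edgeR 2 of the 17 had an unadjusted p below 0.05, beside 18.5%. The most counted gene of the 17 was TAX1BP1, an adaptor of A20, with a log2 fold change of 0.06. The lists without a call in edgeR had none in DESeq2 or limma-trend either. With 1 library left out, 1 gene of these lists was called, the receptor gene TNFRSF12A without NC replicate 1 (log2 fold change 0.19, edgeR adjusted p = 0.042; 0.16 and 0.080 with all libraries).

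Among the 20 other chemokines and receptors, 5 were tested and 1 was called higher (20%, beside 2.47% of all tested genes), the same 1 that had an unadjusted p below 0.05 in edgeR (beside 18.5%), and the median log2 fold change of the 5 was 0.09. This was CCL20, which attracts lymphocytes and dendritic cells through CCR6 and was also the most counted gene of the list. CCL20 had 110, 116 and 131 CPM in NC and 142, 141 and 139 CPM in ORF-Flag. All 3 ORF-Flag libraries exceeded the NC libraries, although the NC libraries were spread more widely than those of CXCL8. CCL20 rose with a log2 fold change of 0.24 ± 0.05 (standard error) and an adjusted p of 0.0030 in edgeR. Per length it was more abundant than CXCL8, with means of 74.5 CPM per kb in NC and 88.5 CPM per kb in ORF-Flag, and the difference between their folds was not tested. In the list, 8 genes were at 0 in all 6 libraries, among them CCL2, CXCL6, CXCR1 and CXCR4, and CXCR2 had 1 count in 1 library. The 250 bases before the RefSeq start of CCL20, at chr2:227813592-227813841 (plus strand) on GRCh38.p14, are shown beside those of CXCL8 as the other chemokine gene that rose.
CCL20: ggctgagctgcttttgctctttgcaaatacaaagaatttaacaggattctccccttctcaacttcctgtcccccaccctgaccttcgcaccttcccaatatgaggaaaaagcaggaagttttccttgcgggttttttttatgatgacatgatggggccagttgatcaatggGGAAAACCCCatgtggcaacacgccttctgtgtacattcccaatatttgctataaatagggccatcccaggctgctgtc
The capitals mark a decamer on the minus strand, from 79 bases before the start. Neither GGANTTTCC nor TGACTCA was found, so the promoters of CCL20 and CXCL8 shared none of the 3 motifs.

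The other target genes, 22 tested of 32, had 2 called higher (9.09%, beside 2.47% of all tested genes) and 0 called lower (beside 1.98%), with a median log2 fold change of 0.08 and 16 of 22 above 0. In edgeR 10 of the 22 had an unadjusted p below 0.05, beside 18.5% of all tested genes. These ran in both directions, with TAP1 and PSMB9 lower in ORF-Flag. All ORF-Flag libraries lay above all NC libraries in 6 of the 22, beside 11.5%, and below them in 1, beside 10.9%. Among the 6, SOD2 was called without NC replicate 1 (edgeR adjusted p = 0.036; 0.089 with all libraries) and SDC4 without NC replicate 3 (0.043; 0.084). IER3, an early response gene that modulates survival, had 65.4, 59.5 and 59.8 CPM in NC and 74.8, 73.3 and 70.2 CPM in ORF-Flag. The groups did not overlap, and IER3 rose with a log2 fold change of 0.24 ± 0.05 (standard error) and an adjusted p of 0.0029 in edgeR. B2M, the light chain of MHC class I, had 267, 260 and 278 CPM in NC and 293, 293 and 304 CPM in ORF-Flag. The groups did not overlap, and B2M rose with a log2 fold change of 0.15 ± 0.03 (standard error) and an adjusted p of 0.015 in edgeR. This call ended when NC replicate 2 or ORF-Flag replicate 3 was left out (edgeR adjusted p between 0.0010 and 0.12 over the alternatives). The most counted gene of the list, the complement gene C3, stood at 1728 to 1799 CPM with a log2 fold change of -0.01. Classical targets such as IL6, VCAM1, PTGS2 and SAA1 were at 0 in all 6 libraries. Of the B2M transcript, 3.50% of the 31-base stretches occur in another gene, and 2.28% of that of IRAK1.

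**Figure D5:**
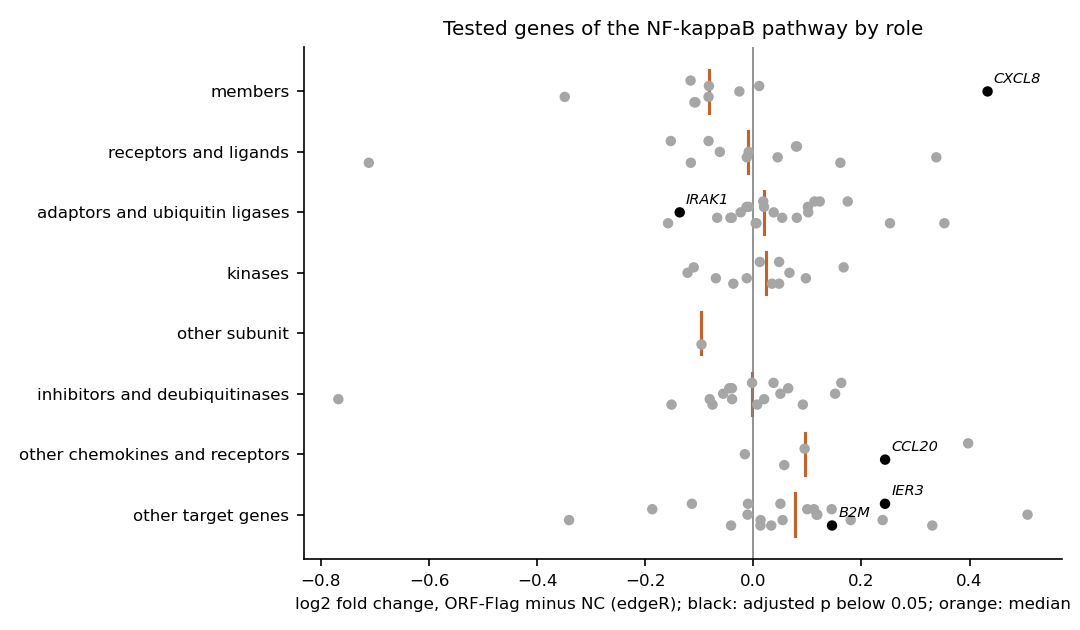
Log2 fold changes of ORF-Flag minus NC (horizontal axis) for the tested members and the tested genes of the 7 other pathway lists; each point is a gene, black where the edgeR adjusted p was below 0.05, and the orange lines are list medians. Called genes are named, and in each list of more than 1 gene the uncalled genes lie on both sides of 0.

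The genes whose log2 CPM over the 6 libraries was most like that of CXCL8 were PLK2 (Pearson r = 0.993), TRAM1 (r = 0.993) and TFPI (r = 0.992). PLK2, a polo-like kinase, had 22.2, 23.0 and 23.8 CPM in NC and 31.2, 31.8 and 33.3 CPM in ORF-Flag. Its groups did not overlap, with a log2 fold change of 0.48 ± 0.06 (standard error). TRAM1, at 0.12, and TFPI, at 0.27, ranked as high with smaller differences, since the correlation ignores their size; the call of TRAM1 was lost in 4 of the 6 fits without 1 library (highest edgeR adjusted p 0.13). These values are a description over 6 libraries in 2 groups, in which 147 tested genes outside the members had r above 0.95.

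The label of the cells was checked against marker genes. All 10 hepatocyte markers were tested, with a summed level of 26711, 27398 and 27886 CPM in NC and 27990, 27595 and 27572 CPM in ORF-Flag. The most counted was APOB, and the least counted was TTR, at 5.63 to 6.66 CPM over the 6 libraries. Of the 10, 2 were called higher, FGB and APOH (20%, beside 2.47% of all tested genes), and 0 lower. In edgeR 5 of the 10 had an unadjusted p below 0.05, beside 18.5%. In 4 of the 10 (FGB, APOH, ALB and SERPINA1) all ORF-Flag libraries were higher, beside 11.5%, and in 0 lower, beside 10.9%. These 4 were among the 5, and the fifth was APOB, which was lower (log2 fold change -0.07, edgeR adjusted p = 0.24) with overlapping groups. Of the 10, 6 were above 0 and 4 below, with a median log2 fold change of 0.04. SERPINA1 was called without NC replicate 3 (edgeR adjusted p = 0.040; 0.13 with all libraries). FGB kept its call with 1 library left out only where that was NC replicate 3 (highest edgeR adjusted p 0.12), and APOH lost it without ORF-Flag replicate 1 (0.069). Of 8 leukocyte markers, which matter for chemokine genes, 4 were tested, and the sum of the list was 1303, 1444 and 1439 CPM in NC and 1533, 1635 and 1533 CPM in ORF-Flag. Nearly all of it was LYZ, at 1255 to 1591 CPM, which was called higher (log2 fold change 0.17, edgeR adjusted p = 0.011, and 0.10 without ORF-Flag replicate 2). LYZ was the 1 gene called higher of the 4 tested (25%, beside 2.47% of all tested genes), and 0 were called lower. It was also the 1 with an unadjusted p below 0.05 in edgeR (beside 18.5%). The median log2 fold change of the 4 was 0.22. The defining markers PTPRC and CD3E were at 0 in all 6 libraries. Of 5 endothelial markers, 1 was tested, PECAM1, and KDR and TEK were at 0. PECAM1 had means of 4.36 CPM in NC and 5.70 CPM in ORF-Flag, and all ORF-Flag libraries exceeded all NC libraries. Its fold was 1.31, beside 1.35 for CXCL8, with an unadjusted p of 0.0069 and an adjusted p of 0.096 in edgeR. The sum of that list was 4.75, 4.16 and 5.01 CPM in NC and 6.56, 5.51 and 6.26 CPM in ORF-Flag, and the part of PECAM1 in the results was not tested. Of 6 fibroblast markers, ACTA2 held nearly all of the sum of 71.2, 71.1 and 63.7 CPM in NC and 72.0, 72.3 and 71.7 CPM in ORF-Flag, and DCN was at 0. All ORF-Flag libraries exceeded all NC libraries for ACTA2 too (log2 fold change 0.08, edgeR adjusted p = 0.41; 0.02 and 0.86 without NC replicate 3). The 3 endothelial and fibroblast markers tested, PECAM1, ACTA2 and PDGFRB, were not called in edgeR or limma-trend (1, PECAM1, had an unadjusted p below 0.05 in edgeR). DESeq2 did not call PECAM1 or ACTA2 and gave PDGFRB no adjusted p.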

How the data were processed

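For 6 HepG2 libraries the authors deposited 1 table of whole-number read counts, not normalized. The submitters' processing notes name cutadapt 1.11, HISAT2 2.1.0, featureCounts 1.6.0, edgeR and the build GRCh38, and libraries were made from TRIzol-extracted RNA with a VAHTS kit. The annotation and strand setting are not given in the sources used here. Identifiers were matched to GENCODE release 29, which gave exon lengths for 20237 of the 20422 genes, not including SOD2. It also gave overlaps and shared 31-base stretches.

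Counts were tested with edgeR 4.0.16 in R 4.3.3 (filterByExpr, TMM, glmQLFit, glmQLFTest). Standard errors came from the F statistic, and 95% intervals from the total degrees of freedom. Total counts of 17494668 to 30088457 put 3 counts at 0.0997 to 0.171 CPM, and such floors cover counting error only. Chi-square per degree of freedom between libraries of a group was 2.39 to 5.23, above sampling noise. The edgeR fits with and without the block, DESeq2 and limma-trend were tested on simulated data; the other settings were not. Promoters were RefSeq entries on GRCh38.p14. Figures used matplotlib 3.10.9.

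Alternatives were DESeq2 1.42.0, limma-trend (limma 3.58.1, prior count 2), DESeq2 size factors, library totals without TMM, no filter, at least 10 counts in every library, the replicate number as a block, and each library left out. The motif TGACTCA, and group overlap under other scalings, were added after seeing the data. Named genes were all 10 members, the called genes and the most counted gene of each list, the 3 tested genes most correlated with the member of smallest p, and genes sharing sequence or position with a member. Genes named beyond that rule, such as TNF, CXCR2, IL6 and other genes at or near 0, and ALB, SERPINA1, TTR, PDGFRB, TNFRSF12A, SOD2, SDC4, LCN2, TAP1 and PSMB9, were chosen after their values were seen. The members and lists were chosen with earlier results of these data known. ASH1L-AS1 was not analysed here, so the construct's level did not check the labels.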

Additional observations from a re-analysis of the deposited data

How the results depend on the processing

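CXCL8 was called in all 13 alternatives, with a log2 fold change between 0.42 and 0.46 and an adjusted p of at most 0.0017. CCL20 and IER3 were also called in all 13. Of 116 fold changes of the 9 tested members under the alternatives, 111 kept their direction with no call gained or lost, among them CXCL2 in DESeq2, which gave it no adjusted p. Among the members, the sign turned for RELB without NC replicate 1 (0.07) and without ORF-Flag replicate 3 (0.05). It also turned for NFKB1 without NC replicate 3 (-0.01) and for BIRC3 without NC replicate 2 (0.01). Outside the members, the sign of TNFRSF1A turned without NC replicate 3 (0.0030). With 1 library left out, the member that moved most was CXCL2, from -0.77 to -0.03 (-0.35 with all libraries). Log2 fold changes ran from -0.14 to -0.07 for NFKBIA, -0.12 to -0.06 for RELA, -0.09 to -0.06 for TNFAIP3, -0.11 to 0.07 for RELB, -0.01 to 0.03 for NFKB1, -0.16 to -0.09 for NFKB2, -0.20 to 0.01 for BIRC3 and -0.03 to 0.0030 for TNFRSF1A, and NFKB2 was called without NC replicate 3. Such fits called 199 to 1058 genes in place of 551, 1 to 2 members in place of 1, and 2 to 5 other pathway genes in place of 4. These fits hold fewer libraries, and the cause of the spread between them was not tested. No filter gave 824 calls among 16367 genes and DESeq2 gave 431. CXCL2 had no value with at least 10 counts in every library, and CXCL1 was tested only without a filter, where both groups are at the floor. The count of members whose groups do not overlap was 1 higher and 3 lower on library totals and on DESeq2 size factors too. Same-numbered libraries of the groups had correlated deviations of 0.0666, 0.0266 and 0.0448, so the numbers were not taken as pairs. With a replicate block 731 genes were called, and no call of a member or other pathway gene changed; ORF-Flag replicate 2 correlated slightly better with NC replicate 3 (0.0304) than with its own number. Depth limits CXCL1 and CXCL2 most.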
